A study of Homo sapiens with 12 samples.

Results

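The genes described here are the enzymes, carriers and regulators that take glucose to pyruvate and on to lactate or acetyl-CoA. They are 35 of the 38021 gene names in the count table and were chosen by name, as a list of the steps and isozymes of the pathway. The rule uses no measured value, although earlier results of these data were known when the list was drawn up. Messenger RNA was sequenced from 12 libraries in 4 groups of 3. The 786O line comes from a clear cell renal carcinoma and lacks working VHL, the ubiquitin ligase subunit that marks HIF alpha proteins for destruction, and WT8 is a 786O derivative that carries wildtype VHL. Each line was infected with lentivirus carrying a control short hairpin RNA (shControl, named a scramble in the sample descriptions) or one against BMAL1 (shBMAL1), the circadian transcription factor listed in the table as ARNTL. The groups are therefore 786O shControl, 786O shBMAL1, WT8 shControl and WT8 shBMAL1. All 4 went through puromycin selection and were grown in the same serum-containing medium. Every comparison of lines rests on 1 VHL-expressing derivative, and the labels do not say which BMAL1 hairpin was used. The replicates are labelled biological, with nothing to say whether they came from separate infections, so that p-values measure the spread between these cultures.

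Glycolysis splits glucose into pyruvate in the cytosol. Pyruvate is then reduced to lactate by lactate dehydrogenase and exported with a proton, or enters the mitochondrion, where the pyruvate dehydrogenase complex turns it into acetyl-CoA unless PDH kinases switch the complex off. HIF transcription factors activate many genes of this pathway, and loss of VHL in clear cell carcinoma leaves HIF active at normal oxygen. BMAL1 and the HIF beta subunit ARNT are related bHLH-PAS proteins, and BMAL1 with CLOCK binds the E-box CACGTG, which contains the HIF core letters ACGTG. The comparisons ask how depletion of BMAL1 altered these genes in each line, whether it altered them differently in the 2 lines, and how the lines differed without it.

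Promoter sequence from RefSeq (GRCh38.p14) was at hand for 32 members. PFKFB2, SLC2A3 and SLC16A1 had none. Printed below are the 250 bases before the annotated start, on the gene's own strand, of 4 members. ENO2 and PCK2 are shown for the largest falls in 786O, PFKFB4 for the largest in WT8 among members with a mean of at least 50 counts, and ALDOC for a large difference between the lines. Capitals mark the HIF core motifs ACGTG and GCGTG and the E-box CACGTG, searched on either strand. They lie at chr12:6914330-6914579 on the plus strand (ENO2), chr14:24094061-24094310 on the plus strand (PCK2), chr3:48556804-48557053 on the minus strand (PFKFB4) and chr17:28576896-28577145 on the minus strand (ALDOC).

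ENO2: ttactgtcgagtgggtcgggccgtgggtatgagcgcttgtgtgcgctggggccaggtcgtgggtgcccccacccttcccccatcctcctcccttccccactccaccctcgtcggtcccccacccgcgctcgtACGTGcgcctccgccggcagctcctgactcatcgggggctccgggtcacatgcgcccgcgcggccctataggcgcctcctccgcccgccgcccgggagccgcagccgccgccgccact
PCK2: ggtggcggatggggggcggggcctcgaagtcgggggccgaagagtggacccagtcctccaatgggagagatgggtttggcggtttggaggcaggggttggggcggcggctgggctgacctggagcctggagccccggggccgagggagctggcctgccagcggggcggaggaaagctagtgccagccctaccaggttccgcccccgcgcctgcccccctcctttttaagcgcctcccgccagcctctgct
PFKFB4: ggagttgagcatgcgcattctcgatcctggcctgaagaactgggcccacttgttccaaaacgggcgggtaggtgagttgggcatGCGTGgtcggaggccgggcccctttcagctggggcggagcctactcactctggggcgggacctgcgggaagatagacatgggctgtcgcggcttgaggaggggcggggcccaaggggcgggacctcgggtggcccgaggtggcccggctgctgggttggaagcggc
ALDOC: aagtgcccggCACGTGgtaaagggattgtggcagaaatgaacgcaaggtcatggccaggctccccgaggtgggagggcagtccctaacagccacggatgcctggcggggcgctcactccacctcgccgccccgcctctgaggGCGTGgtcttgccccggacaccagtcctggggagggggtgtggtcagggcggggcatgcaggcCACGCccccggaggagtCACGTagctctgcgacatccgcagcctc

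The ENO2 window holds 1 ACGTG and the PFKFB4 window 1 GCGTG. The ALDOC window holds 1 CACGTG, 3 matches to ACGTG of which 2 are the 2 strands of that E-box, and 2 matches to GCGTG. None of these letters occur in the PCK2 window, nor in those of SLC2A1 and PGAM1, which were also extracted and are not printed. Over the 62 windows of the 32 members, since many genes have several annotated starts, ACGTG was present in 23 (37.1%) against 18.5% of all 35116 windows. GCGTG was present in 21 (33.9%) against 32.2%, and CACGTG in 8 (12.9%) against 6.34%. A match is a run of letters and was not tested for binding.

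The libraries held 33182005 to 36477484 counts, of which the 35 members took 2.40 to 2.46% in the 786O controls and 2.27 to 2.31% in the 786O knockdowns, with lower shares of 2.02 to 2.07% in the WT8 controls and 2.06 to 2.14% in the WT8 knockdowns. ARNTL was at 13.5, 10.8 and 12 CPM (counts scaled to a common library total, with TMM factors) in 786O shControl and at 4.08, 3.68 and 4.05 in 786O shBMAL1. In WT8 it fell from 9.02, 10.3 and 8.40 to 1.49, 1.92 and 1.55 CPM. VHL was at 17.6 to 20.6 CPM in 786O shControl and at 916 to 1019.5 in WT8 shControl, so both labels were borne out. VHL was lower in WT8 shBMAL1 (631 to 661 CPM), so the WT8 groups differ in VHL mRNA as well as in ARNTL. Of 11 renal markers, 9 to 11 had at least 10 counts in every library of a group, while CA9 was at 0 in both WT8 groups. The endothelial, leukocyte and fibroblast markers summed to at most 1.47, 43.0 and 12.6 CPM, with PTPRC at 0 in 3 of the 4 groups and CD3E in all 4. The remaining leukocyte marker, CD68, made up the whole leukocyte sum in those 3 groups, at 41.0 to 43.0 CPM in 786O shControl. A list of 30 cell cycle genes had summed levels of 5952 to 6113 CPM in the 786O controls, 6185 to 6409 in the 786O knockdowns and 6055 to 6104 in the WT8 knockdowns, against 1308 to 1378 in the WT8 controls. WT8 shControl thus stood apart in proliferation genes. The part of this difference in the results for the pathway was not tested. In bulk RNA, fewer cells expressing a gene and less RNA per cell cannot be told apart.

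A total of 34 members had enough counts to be tested. FBP1, the gluconeogenic enzyme that opposes phosphofructokinase, had 0 counts in 11 libraries and 8 counts (0.217 CPM) in WT8 shControl replicate 3. A count of 0 allows a level of up to 0.0822 to 0.0904 CPM, and no fold is given.

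Depletion of BMAL1 moved glycolytic genes mostly down in 786O and in both directions in WT8. At an adjusted p under 0.1 (edgeR quasi-likelihood test, Benjamini-Hochberg over all 16838 genes tested), 24 of the 34 members were called in 786O, against 48.9% of all genes. Of these, 6 were higher (24.5% of all genes were called higher) and 18 lower (24.4%). In WT8, 28 were called (69.8% of all genes), 15 higher (32.9%) and 13 lower (36.9%). Most of these changes were small. The median log2 change was -0.12 in 786O and 0.08 in WT8, against 0.00 and -0.04 over all genes, and the median size of the change, 0.19 and 0.33, was below that over all genes, 0.25 and 0.45. A called change of over 1.5-fold was found for 6 members in 786O, against 14.3% of all genes, and for 9 in WT8, against 35.9%.

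**Figure D1:**
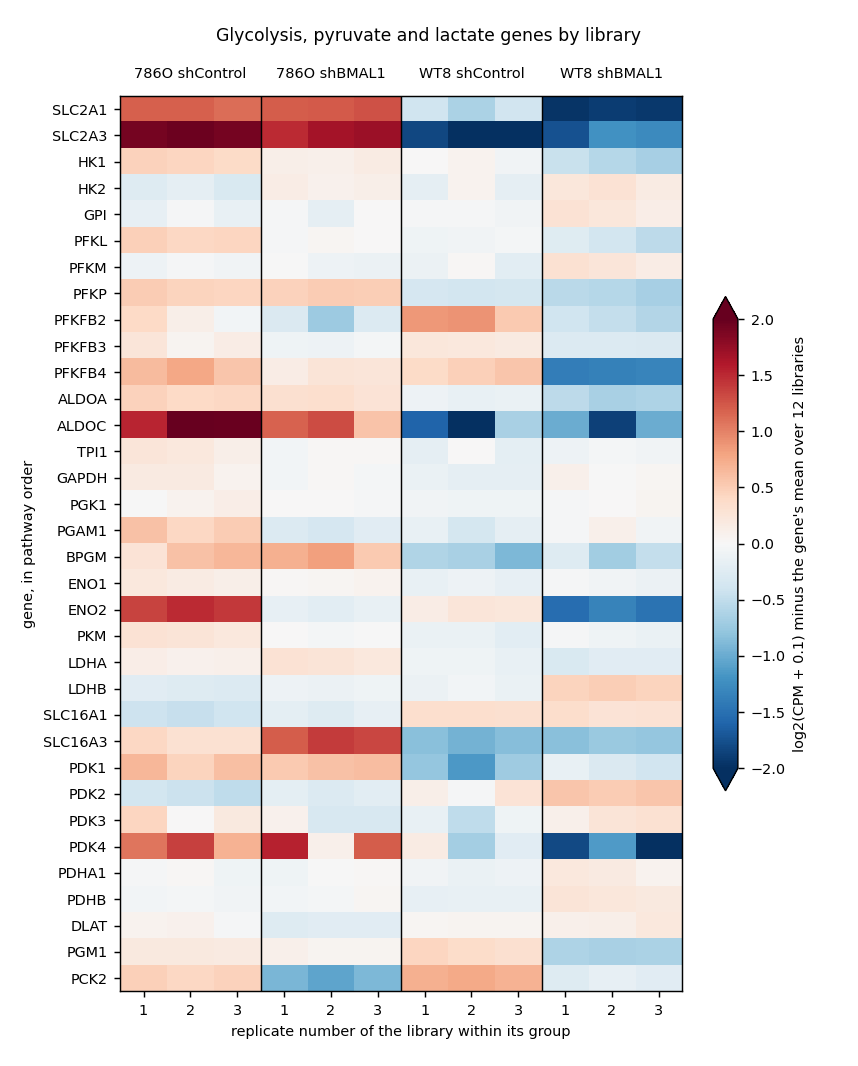
Level of the 34 tested members (rows, in pathway order) in each of the 12 libraries (columns, grouped by cell line and hairpin), as log2(CPM + 0.1) minus the gene's mean over all 12. Colours stop at 2 log2 units on either side. SLC2A1, SLC2A3, ALDOC and PDK1 separate the 786O from the WT8 libraries, while ENO2 and PCK2 are lower in both shBMAL1 groups than in their own controls.

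Set side by side, 9 members were called lower in both lines (HK1, PFKL, PFKFB2, PFKFB3, PFKFB4, ALDOA, ENO2, PGM1 and PCK2), as were 13.6% of all genes, and 4 higher in both (HK2, LDHB, SLC16A3 and PDK2), as were 12.4%. The higher calls of PDK2 in 786O and SLC16A3 in WT8 sat close to the threshold and were lost under other settings. Another 5 were called lower in 786O and higher in WT8 (SLC2A3, GAPDH, PGAM1, PDK3 and DLAT; 5.77% of all genes), and LDHA was called higher in 786O and lower in WT8 (6.35% of all genes). Among those 5, the WT8 call of DLAT was lost under other settings. The 786O calls of SLC2A3 and PDK3 were each lost when 1 library was left out. Only BPGM, the red cell bisphosphoglycerate mutase, was called in neither line, at 0.17 (SE 0.12) and 0.25 (SE 0.14), and its WT8 change was called at 0.36 without WT8 shBMAL1 replicate 2, at 0.31 without WT8 shControl replicate 1 and at 0.25 without 786O shControl replicate 1. The 2 comparisons share no library. The difference between the lines was itself tested as an interaction, which was called for 28 of the 34 members against 56.0% of all genes. In 16 of them the change in WT8 was the more positive (27.4% of all genes) and in 12 the more negative (28.5%).

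**Figure D2:**
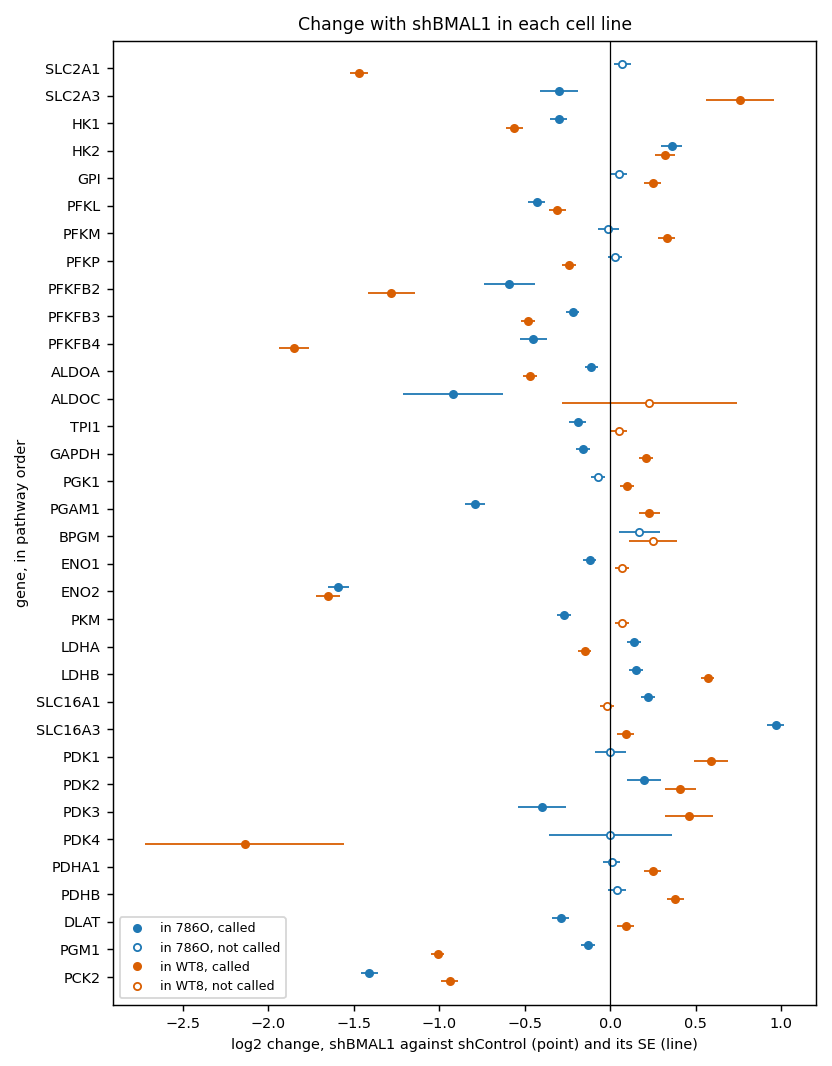
Log2 change of each tested member with shBMAL1 against shControl in 786O (blue) and WT8 (orange), with the standard error of each fitted change as a line. Filled points passed the adjusted p of 0.1. ENO2 is at -1.59 and -1.65 in the 2 lines, whereas SLC2A1 is at 0.07 in 786O and -1.47 in WT8 and PGAM1 at -0.79 and 0.23.

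The glucose carriers among the members are SLC2A1 (GLUT1) and SLC2A3 (GLUT3). SLC2A1 was at 1019, 1026 and 963 CPM in 786O shControl, 1037, 1043 and 1076 in 786O shBMAL1, 338, 286 and 342 in WT8 shControl and 114, 119 and 117 in WT8 shBMAL1. The 786O libraries were all high, the WT8 controls were lower and the WT8 knockdowns lowest, with no overlap between these 3 levels. The change with shBMAL1 was 0.07 (SE 0.05) in 786O and -1.47 (SE 0.05) in WT8, and the interaction of -1.54 (SE 0.07, edgeR adjusted p = 1.65e-19) was the most negative among members with a mean of at least 50 counts. SLC2A3 was at 18.5, 19.1 and 18.4 CPM in 786O shControl and 13.8, 15.6 and 16.1 in 786O shBMAL1. In WT8 it was at 1.30, 0.696 and 1.14 CPM with shControl and 1.38, 2.03 and 1.95 with shBMAL1. It therefore fell slightly in 786O (log2 -0.30, SE 0.11) and rose from a low level in WT8 (0.76, SE 0.20), and without the first 786O shBMAL1 library the fall was -0.24 and no longer called. SLC2A3 and SLC2A14 are near-identical in sequence, and the handling of reads that match both is not given in the sources used here. Per kilobase of exon, SLC2A1 made up 98.3 to 99.7% of the pair in the mean of every group. Other SLC2A genes with counts in these libraries are not among the members and do not enter this share.

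Hexokinases trap glucose as glucose 6-phosphate, and the 2 members of this step, HK1 and HK2, moved in opposite directions. HK1, the more abundant, was at 319.5, 313 and 301 CPM in 786O shControl, 251, 249 and 259 in 786O shBMAL1, 232, 242 and 221 in WT8 shControl and 169, 156 and 146 in WT8 shBMAL1. It fell by 0.30 (SE 0.05) in 786O and by 0.56 (SE 0.05) in WT8 on the log2 scale. HK2, the inducible isozyme of many tumours, rose by 0.36 (SE 0.06) and 0.32 (SE 0.06), and the 2 changes of HK2 did not pass the test of their difference (interaction -0.04, SE 0.09). As a share of both isozymes per kilobase, HK2 went from 13.9% ± 0.411 (SD, n = 3) to 20.4% ± 0.460 in 786O and from 19.4% ± 1.06 to 30.8% ± 1.31 in WT8. HKDC1, a further hexokinase that is not among the members and does not enter these shares, was at 188 ± 5.19 CPM in 786O shControl and 73.9 ± 2.75 in 786O shBMAL1, and at 223 ± 15.9 and 110.4 ± 9.81 in the WT8 groups (SD, n = 3), a called fall in both lines. GPI, which converts glucose 6-phosphate to fructose 6-phosphate, was called in WT8 at 0.25 (SE 0.05) and was at 0.05 (SE 0.05) in 786O.

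Phosphofructokinase commits the sugar to glycolysis. PFKP made up 73.7 to 84.7% of the 3 subunits per kilobase in the group means. Its levels were 1343, 1285 and 1274 CPM in 786O shControl, 1303, 1344 and 1336 in 786O shBMAL1, 752, 731 and 746 in WT8 shControl and 653, 637 and 597 in WT8 shBMAL1. The 786O groups overlapped (0.03, SE 0.04), and in WT8 PFKP fell by 0.24 (SE 0.04). PFKL, the liver subunit, fell in both lines, by 0.43 (SE 0.05) and 0.31 (SE 0.05). PFKM, the muscle subunit, rose in WT8 by 0.33 (SE 0.05) and was at -0.01 (SE 0.06) in 786O, and its share went from 8.78% ± 0.747 to 12.6% ± 0.0602 (SD, n = 3) in WT8.

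The PFKFB enzymes make and break fructose 2,6-bisphosphate, the strongest activator of phosphofructokinase, and all 3 members of this step fell in both lines. PFKFB4 was at 21.3, 23.5 and 20.2 CPM in 786O shControl and 15.2, 16.4 and 16.1 in 786O shBMAL1. In WT8 it was at 17.9, 19.0 and 20.2 with shControl and 5.15, 5.27 and 5.43 with shBMAL1. The groups did not overlap in either line, and the fall in WT8, -1.85 (SE 0.09), exceeded that in 786O, -0.45 (SE 0.08), with an interaction of -1.40 (SE 0.13, edgeR adjusted p = 9.72e-12). PFKFB2 was at 7.17, 5.86 and 5.23 CPM in 786O shControl, 4.39, 3.22 and 4.48 in 786O shBMAL1, 9.92, 10.2 and 7.83 in WT8 shControl and 4.07, 3.85 and 3.56 in WT8 shBMAL1. It fell by 0.59 (SE 0.15) in 786O and by 1.28 (SE 0.14) in WT8. PFKFB3, which held 91.3 to 96.3% of the family per kilobase, was at 284, 250.4 and 265 CPM in 786O shControl, 227, 225 and 235 in 786O shBMAL1, 281, 277 and 272 in WT8 shControl and 198, 198 and 197 in WT8 shBMAL1. Its changes were -0.22 (SE 0.04) and -0.48 (SE 0.04). The interaction was negative and called for all 3.

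**Figure D3:**
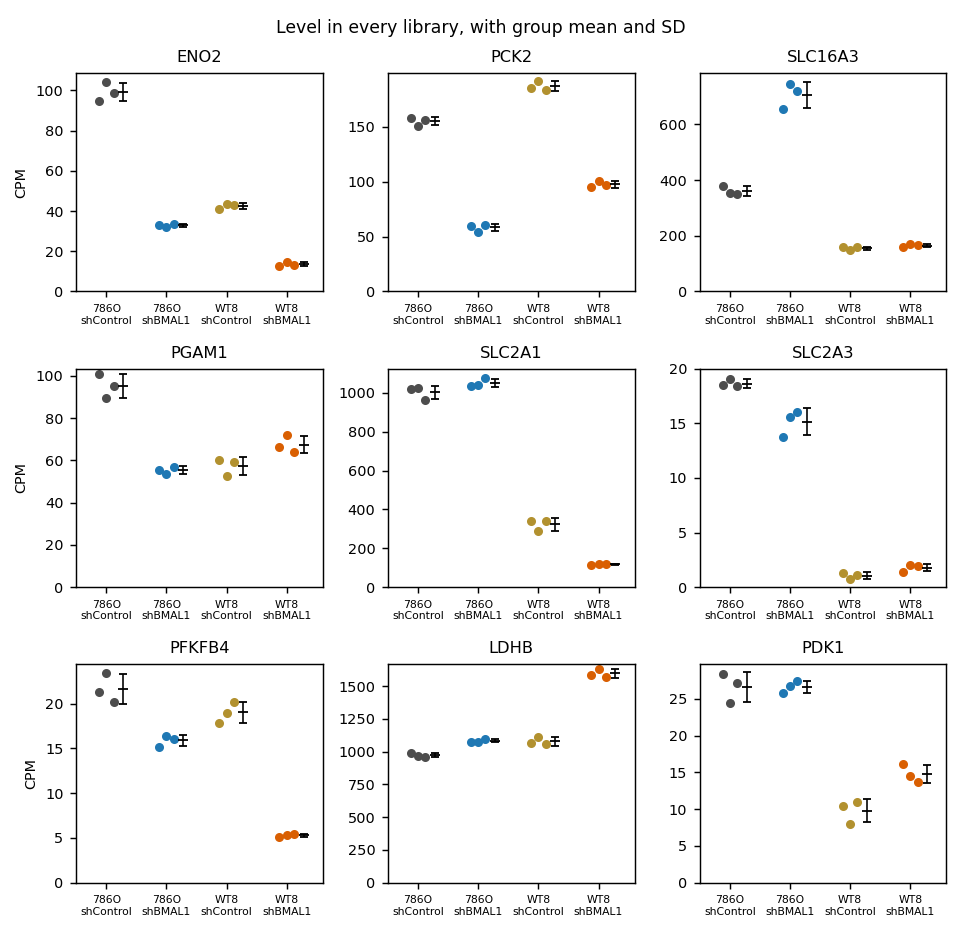
CPM in every library (points) for 9 members in the 4 groups, with the group mean and SD (n = 3) in black beside the points. Each panel has its own axis, which starts at 0. The ENO2 knockdown libraries lie at 32.1 to 33.4 CPM in 786O and 12.8 to 14.6 in WT8, the SLC16A3 panel shows a rise in 786O, and the SLC2A1 panel shows a fall in WT8.

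Among the aldolases, which split the 6-carbon sugar, ALDOA accounted for over 99% of the pair per kilobase. ALDOA was at 1897, 1819 and 1843 CPM in 786O shControl, 1734, 1741 and 1672 in 786O shBMAL1, 1285, 1242 and 1265 in WT8 shControl and 963, 879 and 899 in WT8 shBMAL1. It fell in both lines, by 0.11 (SE 0.04) and by 0.47 (SE 0.04), and the 786O call was lost without shControl replicate 1 (-0.09) or shBMAL1 replicate 3 (-0.10). ALDOC, the brain-type aldolase, was at 2.92, 4.92 and 4.01 CPM in 786O shControl and 2.27, 2.50 and 1.46 in 786O shBMAL1, a fall of 0.92 (SE 0.29) that DESeq2 did not call. The WT8 libraries held 2 to 21 counts of ALDOC, with 0.245, 0.0580 and 0.571 CPM in shControl and 0.425, 0.187 and 0.428 in shBMAL1. These groups overlapped, and the WT8 change of 0.23 (SE 0.51) turned to -0.23 without shControl replicate 2 and to a called 1.15 without replicate 3. ALDOC overlaps RSKR on the same strand, so reads of the 2 genes may be mixed.

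The lower part of the pathway, from triose phosphate to pyruvate, holds the most abundant members per kilobase, GAPDH, ENO1 and PKM. Their means were 1751, 736 and 685 CPM per kilobase in 786O shControl. Other members of this part were much lower, with PGAM1 at 37.5 and BPGM at 4.04. PKM, ENO1 and GAPDH stood at 5712 to 6021, 3726 to 3961 and 3994 to 4303 CPM in 786O shControl. TPI1, GAPDH, ENO1 and PKM each fell in 786O, at -0.19 (SE 0.05), -0.16 (SE 0.04), -0.12 (SE 0.04) and -0.27 (SE 0.04). In WT8 GAPDH, which makes the first NADH of the pathway, rose by 0.21 (SE 0.04), and TPI1, ENO1 and PKM were at 0.05, 0.07 and 0.07 (SE 0.04 to 0.05) and not called. The last 2 were called at 0.07 by limma-voom, and at 0.08 to 0.10 without WT8 shControl replicate 2 or WT8 shBMAL1 replicate 3, and TPI1 at 0.12 without WT8 shControl replicate 2. PGK1, a kinase that yields ATP, was at -0.07 (SE 0.04) in 786O and 0.10 (SE 0.04) in WT8. Its WT8 call was lost without WT8 shBMAL1 replicate 3 (0.08), and its 786O change was called without 786O shControl replicate 1 (-0.10). The interaction was positive and called for all 5 of these genes, between 0.17 and 0.37. With upper-quartile factors the interaction of PGK1 was 0.11 and its WT8 change 0.02, and neither was called. GAPDH, PGK1, TPI1, ENO1, PKM and PGAM1 have processed pseudogenes, 65 named after GAPDH and 13 after PGAM1, none of which is a row of the count table, so reads from them may be counted with the parent gene or dropped.

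PGAM1, the phosphoglycerate mutase, differed most from its neighbours. Its levels were 101, 89.7 and 95.2 CPM in 786O shControl, 55.5, 53.4 and 57.1 in 786O shBMAL1, 60.3, 52.5 and 59.2 in WT8 shControl and 66.3, 71.8 and 64.1 in WT8 shBMAL1. The 786O controls were high and the other 3 groups were lower, and in WT8 the shBMAL1 libraries all lay above the controls. PGAM1 fell in 786O (log2 -0.79, SE 0.06) and rose in WT8 (0.23, SE 0.06), with an interaction of 1.02 (SE 0.08, edgeR adjusted p = 6.75e-13).

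Enolase 2, the neuronal isozyme and a known HIF target, gave the largest called change in 786O. ENO2 was at 95, 104 and 98.9 CPM in 786O shControl, 33.0, 32.1 and 33.4 in 786O shBMAL1, 41.0, 43.7 and 43.2 in WT8 shControl and 12.8, 14.6 and 13.2 in WT8 shBMAL1. All knockdown libraries lay below all controls of their line. The change was -1.59 (SE 0.06, edgeR adjusted p = 1.00e-21) in 786O and -1.65 (SE 0.07, edgeR adjusted p = 3.64e-22) in WT8, and the 2 did not pass the test of their difference (interaction -0.06, SE 0.09). ENO1, with 3961, 3828 and 3726 CPM in 786O shControl, 3489, 3502 and 3597 in 786O shBMAL1, 3078, 3205 and 3039 in WT8 shControl and 3369, 3262 and 3162 in WT8 shBMAL1, remained the leading enolase by far. As a share of ENO1 and ENO2 per kilobase, ENO2 went from 3.06% ± 0.189 to 1.12% ± 0.0165 in 786O and from 1.64% ± 0.0538 to 0.504% ± 0.0411 in WT8 (SD, n = 3). A further enolase, ENO3, is not among the members and does not enter these shares. Its mean level was 1.66 CPM in 786O shControl and 0.814 in 786O shBMAL1, and 21.4 and 6.57 CPM in the WT8 groups in the same order. ENO2 overlaps LRRC23 on the same strand.

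Lactate dehydrogenase is a tetramer of LDHA and LDHB subunits, of which LDHA favours the reduction of pyruvate to lactate. LDHA was at 2365, 2279 and 2297 CPM in 786O shControl, 2619, 2566 and 2481 in 786O shBMAL1, 2023, 2035 and 1948 in WT8 shControl and 1733, 1839 and 1843 in WT8 shBMAL1. It rose in 786O by 0.14 (SE 0.04) and fell in WT8 by 0.15 (SE 0.04), without overlap in either line. LDHB was at 989, 969 and 961 CPM in 786O shControl, 1077, 1075 and 1095 in 786O shBMAL1, 1064, 1115 and 1055 in WT8 shControl and 1585, 1633 and 1572 in WT8 shBMAL1. The WT8 knockdown libraries lay above all the other 9. LDHB rose by 0.15 (SE 0.04) in 786O and 0.57 (SE 0.04) in WT8. The share of LDHA in the pair, per kilobase, was 54.1% ± 0.229 and 53.9% ± 0.919 in the 786O groups and went from 47.9% ± 0.534 to 35.9% ± 0.811 in WT8 (SD, n = 3). With the longest transcript as the length, LDHA held 56.0% in WT8 shControl and 43.7% in WT8 shBMAL1, so which subunit led in WT8 shControl depends on the length used.

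Lactate leaves the cell through the monocarboxylate carriers SLC16A1 (MCT1) and SLC16A3 (MCT4), the latter the typical exporter of glycolytic cells. SLC16A3 was at 380.1, 352 and 349 CPM in 786O shControl, 654, 746 and 718 in 786O shBMAL1, 159, 148 and 158 in WT8 shControl and 159, 169.6 and 166 in WT8 shBMAL1. It was the only member to rise by over 1.5-fold in 786O (0.97, SE 0.05, edgeR adjusted p = 1.66e-18). In WT8 the groups overlapped, and the change of 0.09 (SE 0.05, edgeR adjusted p = 0.0974) was not called by DESeq2 or limma-voom, nor without any 1 of 4 libraries (0.06 to 0.09): 786O shControl replicate 2, WT8 shControl replicate 2, and WT8 shBMAL1 replicates 2 and 3. SLC16A1 was at 125, 120.2 and 126 CPM in 786O shControl, 145, 139 and 148 in 786O shBMAL1, 210.3, 210.5 and 207 in WT8 shControl and 213, 201 and 203 in WT8 shBMAL1. It rose in 786O by 0.22 (SE 0.04) and was at -0.02 (SE 0.04) in WT8. SLC16A3 held 66.7% ± 1.01 of the pair per kilobase in 786O shControl and 77.1% ± 1.55 in 786O shBMAL1, but 33.7% ± 0.984 and 35.5% ± 1.48 in the WT8 groups, where SLC16A1 led.

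**Figure D4:**
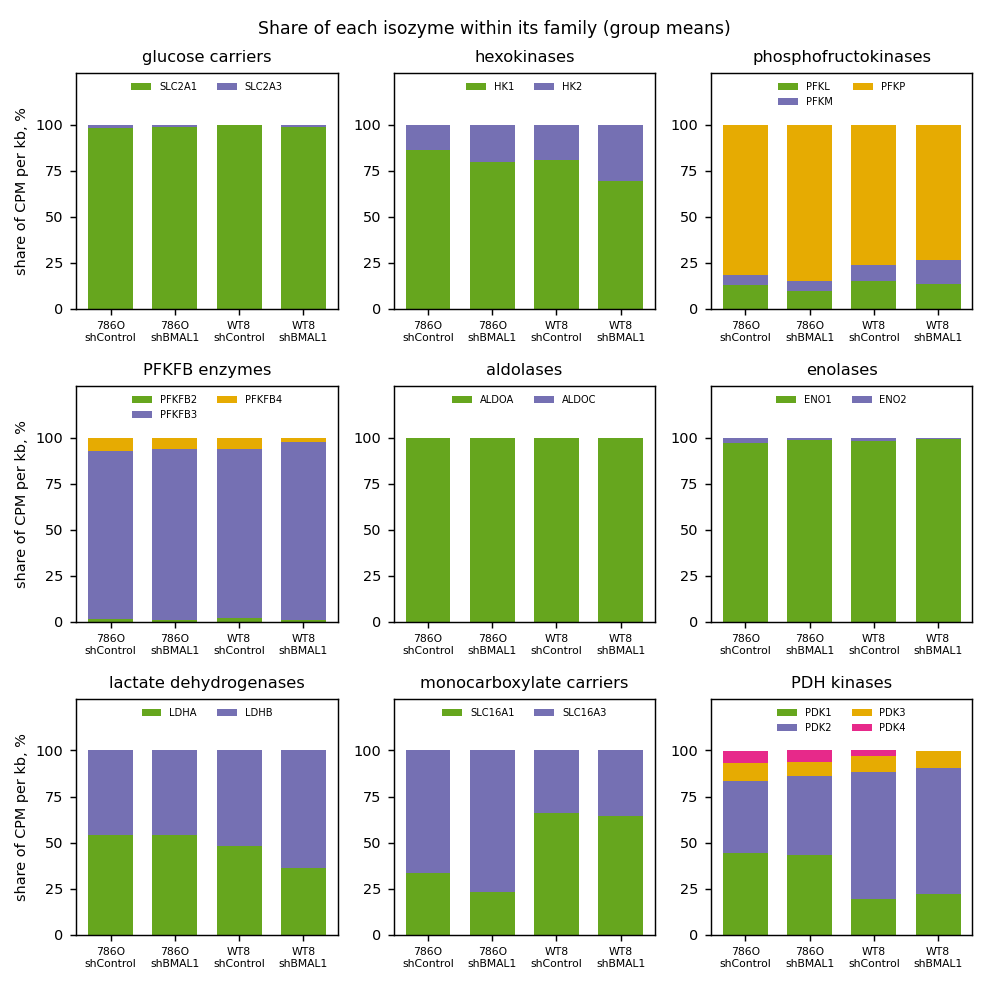
Mean share of each isozyme in the CPM per kilobase of the members of its family in the 4 groups (stacked bars, n = 3 libraries each). The HK2 share is larger with shBMAL1 in both lines, the LDHA share falls to 35.9% in WT8 shBMAL1, and the leading monocarboxylate carrier differs between 786O shControl and WT8 shControl.

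The mitochondrial entry point is represented by 3 subunits of pyruvate dehydrogenase and 4 of its kinases. PDHA1 and PDHB, the subunits of the E1 enzyme, rose in WT8 by 0.25 (SE 0.05) and 0.38 (SE 0.05) and were at 0.01 (SE 0.05) and 0.04 (SE 0.05) in 786O. DLAT, the E2 core, fell in 786O by 0.29 (SE 0.05), and its WT8 change of 0.09 (SE 0.05) passed narrowly, was not called by DESeq2 and was lost without any 1 of 4 WT8 libraries (each shControl replicate and shBMAL1 replicate 3, 0.06 to 0.10). The complex also holds PDHX and DLD, which are not members and were looked up after their values were seen. PDHX was at -0.11 (SE 0.06) in 786O and rose by 0.37 (SE 0.06) in WT8, and DLD fell by 0.24 (SE 0.05) in 786O and rose by 0.41 (SE 0.05) in WT8. PDK1, a HIF target among the kinases, was at 28.4, 24.4 and 27.1 CPM in 786O shControl, 25.8, 26.7 and 27.4 in 786O shBMAL1, 10.4, 8.0 and 10.9 in WT8 shControl and 16.1, 14.5 and 13.7 in WT8 shBMAL1. The 786O groups overlapped (0.00, SE 0.09), and PDK1 rose in WT8 (0.59, SE 0.10) to a level still below every 786O library. PDK2, the widely expressed kinase, was at 9.01, 8.55 and 8.16 CPM in 786O shControl, 10.1, 9.55 and 9.96 in 786O shBMAL1, 12.6, 11.4 and 14.1 in WT8 shControl and 17.1, 16.5 and 17 in WT8 shBMAL1. Its change was 0.41 (SE 0.09) in WT8 and 0.20 (SE 0.10, edgeR adjusted p = 0.0962) in 786O, where 9 of the 12 fits that leave out 1 library lost the call, at 0.17 to 0.23. PDK3 was called lower in 786O (-0.40, SE 0.14), where the groups overlapped and the call was lost without the first shControl library (-0.28), and higher in WT8 (0.46, SE 0.14). PDK4, the starvation-responsive kinase, was at 0.00 (SE 0.36) in 786O, with -0.34 to 0.34 when 1 library was left out. It had 22, 10 and 16 counts in WT8 shControl and 3, 7 and 1 in WT8 shBMAL1, a fitted change of -2.14 (SE 0.58) that ranged from -2.97 to -1.70 when 1 library was left out. Per kilobase, PDK1 held 44.4% ± 2.17 of the 4 kinases in 786O shControl and PDK2 38.8% ± 1.12, while PDK2 held 68.9% ± 2.19 in WT8 shControl and PDK1 19.5% ± 1.01 (SD, n = 3). With the longest transcript as the length, PDK2 led in 786O shControl too, at 47.7% against 35.4% for PDK1.

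Both genes at the branches of the pathway fell in both lines. PCK2, the mitochondrial phosphoenolpyruvate carboxykinase, was at 158, 151 and 156 CPM in 786O shControl, 60.1, 54.3 and 60.6 in 786O shBMAL1, 185, 192 and 184 in WT8 shControl and 94.9, 101 and 96.7 in WT8 shBMAL1. The knockdown libraries were low in both lines with no overlap. The changes were -1.41 (SE 0.05, edgeR adjusted p = 8.91e-23) in 786O and -0.94 (SE 0.05, edgeR adjusted p = 4.66e-19) in WT8, a smaller fall by the interaction (0.47, SE 0.07). PGM1, which links glycogen to glucose 6-phosphate, fell by 0.13 (SE 0.04) in 786O and by 1.01 (SE 0.04) in WT8, with an interaction of -0.88 (SE 0.06).

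Between the lines without BMAL1 depletion, most glycolytic genes were lower in the VHL-expressing WT8 cells. Of 34 members, 29 were called (79.5% of all genes), 7 higher in WT8 (39.3%) and 22 lower (40.2%), with a median log2 difference of -0.30 against 0.00 over all genes. With library totals alone or upper-quartile factors in place of TMM, the median of all genes itself moved to 0.12 or 0.11 and the members divided into 10 higher and 19 lower. This comparison uses the same shControl libraries as the 2 knockdown comparisons, so their values are set side by side only. The largest differences, WT8 shControl against 786O shControl, were SLC2A3 at -4.15 (SE 0.15) and ALDOC at -3.73 (SE 0.38, with 9, 2 and 21 counts in WT8 shControl), followed among members with at least 50 counts by SLC2A1 at -1.64 (SE 0.05) and PDK1 at -1.44 (SE 0.09). PDK4 was at -1.45 (SE 0.41). BPGM (-1.25, SE 0.13), ENO2 (-1.22, SE 0.06), SLC16A3 (-1.22, SE 0.05), PFKP (-0.81, SE 0.04) and PGAM1 (-0.73, SE 0.06) followed. The 7 higher members were SLC16A1 (0.76, SE 0.04), PFKFB2 (0.61, SE 0.14), PDK2 (0.57, SE 0.10), PCK2 (0.27, SE 0.05), PGM1 (0.18, SE 0.04), HK2 (0.15, SE 0.06) and LDHB (0.15, SE 0.04). The call of HK2 was lost without 786O shControl replicate 3 (0.12) or WT8 shControl replicate 2 (0.06), and that of PFKFB4 (-0.19, SE 0.08) without 786O shControl replicate 2 (-0.13) or WT8 shControl replicate 1 (-0.14).

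The mRNA of genes known to act on the pathway also differed with shBMAL1 in at least 1 line. EPAS1 (HIF2 alpha) was at -0.08 (SE 0.04) with shBMAL1 in 786O and at -1.51 (SE 0.05) in WT8. HIF1A was at 0.43 (SE 0.06) and -1.09 (SE 0.06), ARNT at -0.47 (SE 0.07) and -0.11 (SE 0.07) and MYC at 0.53 (SE 0.05) and 0.14 (SE 0.05) in the same order. The part of these changes in those of the members was not tested. Protein was not measured here, and the study describes slightly more ARNT protein in 786O cells after BMAL1 depletion.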

How the data were processed

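RNA from 12 libraries (786O and WT8, shControl and shBMAL1, 3 each) was made into stranded mRNA libraries and sequenced paired-end on DNBSEQ by BGI. For the RNA of cell lines the study's methods name a BGISEQ instrument, so the platform is not settled. The deposited table holds expected counts per gene name, made by the authors and not normalised, in which 0.028 stands for 0 (47.0% of values) and 5.67% of the other values are not whole. The study's methods name SeqMan NGen, ArrayStar, DESeq2 and the GRCh37 build, whereas the submitters' processing notes name STAR, DESeq2 and hg38, and the sources differ. The annotation, the use of strand and the handling of multiply mapped reads are not given in the sources used here. Values of 2 counts (14904) outnumber values of 1 count (11312), so mates may have been counted separately, which would make counting error larger than the counts imply.

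Values were rounded, with the stand-in set to 0, and tested as counts. Whole counts had been assumed when the test was chosen. The test was edgeR 4.0.16 (R 4.3.3): filterByExpr on the 4 groups kept 16838 of 26925 genes with a count, TMM factors were 0.948 to 1.04, and a robust quasi-likelihood F test on group means over all 12 libraries gave log2 changes, whose SE was obtained from the F statistic. P-values were adjusted by the Benjamini-Hochberg method over all genes tested, and 0.1 was the threshold, as in the study. A gene past it is called, higher or lower by the sign. On counts simulated for the 786O comparison (16838 genes), the test called 74 of 100 genes changed by 0.5 log2 units and 90 of 100 changed by 1, with 18 false calls. Only these genes were changed in the simulation, and all genes had the same relative spread. In the data 48.9% of genes were called in 786O, so the simulated rates need not hold there. CPM used TMM-scaled totals, and levels were compared between genes only per kilobase of merged exons (GENCODE v44 on GRCh37). Members and lists were chosen with earlier results of these data known. Values in every library are given for the 4 called members with the largest change in each comparison among those with a mean of at least 50 counts, and for the leading isozyme of each family. The other lists were 72 genes of neighbouring pathways, of which those called with a fold over 2 may be named, and markers of renal and other cells and of the cell cycle. Depth was 33182005 to 36477484 counts, and intervals and floors (3 counts) cover counting error only. Same-numbered replicates did not deviate together (correlations -0.0456 to 0.0481 for 18 pairs), so no block entered the test. Alternatives were RLE and upper-quartile factors, library totals alone, no filter on low counts, DESeq2 1.42.0, limma-voom 3.58.1, a replicate block, a fit on only the groups compared, values not rounded, an adjusted p under 0.05, a fold over 1.5, other gene lengths, and leaving out each library. Promoter windows are from RefSeq.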

Additional observations from a re-analysis of the deposited data

Results flagged for a closer look

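The change with shBMAL1 differed between WT8 and 786O by the interaction test (edgeR, adjusted p under 0.1) for 28 of the 34 members tested, against 56.0% of all genes. Values are the log2 change in WT8 minus that in 786O. Among carriers and the upper steps they were -1.54 for SLC2A1, 1.06 for SLC2A3, -0.26 for HK1, 0.20 for GPI, 0.34 for PFKM, -0.27 for PFKP, -0.69 for PFKFB2, -0.26 for PFKFB3, -1.40 for PFKFB4 and -0.36 for ALDOA. From triose phosphate to pyruvate they were 0.23 for TPI1, 0.37 for GAPDH, 0.17 for PGK1, 1.02 for PGAM1, 0.19 for ENO1 and 0.34 for PKM. For lactate they were -0.29 for LDHA, 0.41 for LDHB, -0.24 for SLC16A1 and -0.88 for SLC16A3. At pyruvate dehydrogenase they were 0.59 for PDK1, 0.86 for PDK3, -2.14 for PDK4 (on 1 to 22 counts in WT8), 0.24 for PDHA1, 0.34 for PDHB and 0.38 for DLAT. At the branches they were -0.88 for PGM1 and 0.47 for PCK2. Groups of 3 were not searched for single outlying libraries.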

How the results depend on the processing

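Of 136 member changes tested, 104 kept their direction and their side of the threshold under every alternative except the 1.5-fold minimum (up to 23 per change). With that minimum the members called, of 34 tested, were 6 in 786O, 9 in WT8, 12 between the lines and 10 for the interaction. The same counts over all 16838 genes were 2409, 6037, 8312 and 4932. Without the minimum, leaving out 1 library gave 22 to 24, 27 to 29, 27 to 30 and 28 to 30 members called. With a replicate block they were 23, 26, 29 and 28, and the block lost the calls of PDK2 in 786O and of SLC16A3 and DLAT in WT8. Upper-quartile factors moved the median of all genes to -0.12 in WT8 and 0.11 between the lines, and library totals alone to 0.12 between the lines. Under these 2 scalings the line difference turned to 0.08 and 0.09 for PFKM, 0.05 and 0.05 for PDHA1 and 0.01 and 0.02 for PDHB, and TPI1 in WT8 turned to -0.03 with the first. With 1 library left out, values near 0 changed sign within ranges of -0.04 to 0.01 (PFKM, 786O), -0.02 to 0.04 (PDHA1, 786O), -0.34 to 0.34 (PDK4, 786O), -0.06 to 0.05 (PDK1, 786O), -0.03 to 0.02 (DLAT, lines), -0.23 to 1.15 (ALDOC, WT8), -0.10 to 0.02 (PFKM, lines), -0.08 to 0.05 (HK2, interaction) and -0.03 to 0.19 (BPGM, interaction). The called line difference of ALDOC ranged from -4.65 to -3.26, and its interaction, 1.16 (SE 0.59) and not called, was called in 4 of these fits, at up to 2.08. The leading isozyme was the same in 35 to 36 of 36 family and group pairs with 1 library left out, in 34 with the longest transcript as length (PDK2 then led in 786O shControl and LDHA in WT8 shControl) and in 33 without division by length. The cause of these changes was not tested. At this depth ALDOC and PDK4 in WT8 rest on 1 to 22 counts a library, which limits both.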

Other observations

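In a list of 72 genes of neighbouring pathways (other isozymes and carriers, glycogen and other sugar metabolism, and glucose sensing), 59 had enough counts. In 786O 33 of these were called (55.9%, against 48.9% of all genes; 14 higher, 19 lower, median log2 change -0.06 against 0.00) and in WT8 53 (89.8%, against 69.8%; 23 higher, 30 lower, median -0.23 against -0.04). Called changes over 2-fold in 786O numbered 4 of the 59, against 1150 of all 16838 genes. They were ENO3 (-1.02, SE 0.21), HKDC1 (-1.35, SE 0.06), the liver glycogen phosphorylase PYGL (-1.07, SE 0.05) and SLC2A2 (2.75, SE 0.34), on a mean of 58.4 counts for SLC2A2.

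In WT8 14 of the 59 genes with enough counts had a called change over 2-fold, against 3453 of all 16838 genes. Not all of the 14 are named here. Both glycogen phosphorylases fell there, PYGL by 1.75 (SE 0.05) and PYGB by 1.38 (SE 0.05). TXNIP, which restrains glucose uptake, fell by 2.92 (SE 0.13) in WT8 and 0.70 (SE 0.12) in 786O. HKDC1 (-1.01), ENO3 (-1.71), GALM (-1.21), SLC16A4 (-1.29), SLC2A4 (-1.21), SLC2A14 (-1.67), LDHC (-2.09) and LDHD (-3.46) also fell, and SLC2A2 (2.64) and SLC16A7 (1.23) rose. Means over the 12 libraries were at most 58.4 counts for SLC2A2, GALM, SLC2A4, SLC2A14, LDHC and LDHD.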
